A study of Rattus norvegicus with 2 samples.

Results

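The small leucine-rich proteoglycans and the large proteoglycan versican were followed through the cells of the rat carotid artery. The family was taken by gene symbol as 9 genes, Dcn, Lum, Bgn, Ogn, Fmod, Prelp, Aspn, Omd and Vcan, and each symbol was found once among the 32623 listed genes. The 10x Genomics platform was used to count RNA molecules of single cells in SD rats, which were 12 weeks old according to the labels. The control library held the untreated left carotid arteries and the case library held the right carotid arteries after balloon injury, which strips the endothelium and stretches the wall. On the right side the external carotid branch was also cut open for the catheter and then tied off. Effects of this ligation cannot be told apart from those of the balloon. Arteries of 2 male rats were pooled per library and were collected 28 days after the injury. The left arteries came from the operated animals, so they are arteries without balloon injury and not arteries of unoperated rats. There is 1 library per group and therefore no test, and a difference between libraries cannot be told apart from a difference between pools or dissections.

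Small leucine-rich proteoglycans are secreted proteins with a core of leucine-rich repeats, and many but not all of them carry chondroitin, dermatan or keratan sulfate chains. Several of them bind collagen fibrils and set their spacing and diameter, and decorin and biglycan also hold growth factors of the TGF-beta family in the matrix. Versican is a large chondroitin sulfate proteoglycan that binds hyaluronan and gives the loose, hydrated matrix of the vessel wall, and it is known for its accumulation in arterial lesions. The counts are of 3' tags, so the splice forms of Vcan, which differ in their sulfate chains, were not separated. Levels are compared between cells. Where UMIs of different genes are set side by side, as for Omd and in the ratios to Dcn, they are no measure of relative amounts.

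The members lie in clusters of related genes. In the RefSeq annotation Ogn, Omd and Aspn follow each other on chromosome 17, Dcn and Lum are neighbours on chromosome 7, Prelp and Fmod are neighbours on chromosome 13, and Vcan on chromosome 2 lies beside Hapln1, which encodes a link protein of hyaluronan. Bgn lies on chromosome X with no other member beside it. The start regions of the 3 neighbours on chromosome 17 are shown because Ogn in smooth muscle cells and Aspn in fibroblasts had the largest case-to-control ratios among the members tested in these main classes, while Omd between them had almost no reads. Each sequence runs from 250 bases before to 50 bases after the annotated start (RefSeq, build GRCr8, while the counts were made on Rnor_6.0), and capitals mark matches to the motifs searched on both strands.
Ogn (chr17:15258946-15259245, minus strand): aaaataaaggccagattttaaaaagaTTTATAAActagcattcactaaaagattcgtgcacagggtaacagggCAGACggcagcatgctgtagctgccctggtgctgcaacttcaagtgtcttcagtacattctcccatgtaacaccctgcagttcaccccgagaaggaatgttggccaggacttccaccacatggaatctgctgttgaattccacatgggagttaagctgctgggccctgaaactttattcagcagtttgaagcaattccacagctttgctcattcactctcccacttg
Omd (chr17:15274821-15275120, minus strand): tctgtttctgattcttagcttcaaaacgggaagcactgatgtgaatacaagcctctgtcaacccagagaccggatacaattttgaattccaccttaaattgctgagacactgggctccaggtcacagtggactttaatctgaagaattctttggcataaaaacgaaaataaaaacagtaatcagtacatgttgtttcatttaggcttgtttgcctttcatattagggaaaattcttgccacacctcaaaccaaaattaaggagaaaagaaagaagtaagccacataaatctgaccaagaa
Aspn (chr17:15310420-15310719, minus strand): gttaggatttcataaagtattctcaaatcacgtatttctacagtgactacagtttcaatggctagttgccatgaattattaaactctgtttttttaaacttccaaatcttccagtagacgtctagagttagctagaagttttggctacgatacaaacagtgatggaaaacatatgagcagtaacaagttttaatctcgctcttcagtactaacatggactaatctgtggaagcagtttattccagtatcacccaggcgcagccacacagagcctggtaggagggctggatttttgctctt
Searched were TATAAA (the TATA box), CCAAT (known for NF-Y), TGANTCA (known for AP-1), the CArG box (known for serum response factor), CAGAC (known for SMAD proteins), TTCNNNGAA (known for STAT proteins) and TGACGTCA (known for CREB). The Ogn sequence held TATAAA in both directions in 2 overlapping matches at bases 27 to 34, and CAGAC at bases 74 to 78, counted from the first base printed. None of these motifs was found in the Omd and Aspn windows. The TATAAA matches of Ogn lie near the upstream end of its window and not near the annotated start, so they were not read as a TATA box. TATAAA was found in 14.2% and CAGAC in 50.1% of all 33469 start regions of this length, so a match is common. RefSeq start regions were also matched for Lum, Fmod and Vcan, and none was matched for Dcn, Bgn and Prelp.

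Cells were sorted into classes by marker genes that do not include the members. Of 8977 barcodes, 7191 were kept, with 2244 in the control library and 4947 in the case library. The smooth muscle class held 1069 control and 2478 case cells and was read by Myh11, Acta2, Tagln and other contractile genes. The fibroblast class held 682 and 1353 cells and was read by Pdgfra, Pi16, Clec3b and others. Endothelial cells (45 and 218), macrophages (37 and 98) and Schwann cells (21 and 44) were few. A further 315 control and 696 case cells, 14.0% and 14.1% of those kept, fitted no gate and were left ungated. The smooth muscle markers made up 2.47% of the UMIs of their class in the control and 1.99% in the case library. The fibroblast markers made up 0.809% and 0.610% of theirs, and 18 control and 88 case fibroblasts lay within 25% of the limit of their gate. Pi16, a marker of the class that also divides the fibroblasts below, was at 2250 and 982 CPM in them. Cells with few marker transcripts fall outside their class, and whether more did so in the case library was not tested. The control cells held more UMIs, with a median of 10906.5 per kept cell against 5174 in the case library (5981 and 4778 over all barcodes), and 21 barcodes occurred in both libraries, of which 5 were kept in both. Levels are therefore given as CPM, in which the UMIs (unique RNA molecules) of a gene were summed over the cells of a class and scaled to all UMIs of that class and library. Every interval is a 95% interval of counting error only.

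Each gene had its own distribution over the cell types (see the plot of levels by class). Dcn, decorin, was by far a fibroblast transcript. Its level was 14826 CPM in control and 11908 CPM in case fibroblasts, against 225 and 258 CPM in smooth muscle cells. The ratio of fibroblasts to smooth muscle cells was 65.9 (63.5 to 68.4) in the control and 46.2 (44.7 to 47.7) in the case library. The fibroblast class held 89.5% of all control and 83.6% of all case UMIs of Dcn.

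Lum, lumican, which carries keratan sulfate and regulates collagen fibrils, followed the same order with a smaller gap. It was measured at 1308 CPM in control and 1855 CPM in case fibroblasts, and at 145 and 144 CPM in smooth muscle cells. Fibroblasts were thus 9.03 (8.60 to 9.49) times higher in the control and 12.9 (12.3 to 13.5) times higher in the case library. Aspn, asporin, a member that binds collagen and calcium, was also higher in fibroblasts. Its level there was 183 CPM in the control and 335 CPM in the case library, against 56.2 and 57.2 CPM in smooth muscle cells, which gave ratios of 3.25 (2.97 to 3.56) and 5.86 (5.41 to 6.34). The gap between the classes was wider for Lum and Aspn in the case library. For Dcn it was narrower as counted, but with the macrophage level subtracted smooth muscle Dcn was lower and not higher in the case library.

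Ogn, osteoglycin or mimecan, was high in both main classes. It reached 3814 and 5573 CPM in control and case fibroblasts and 1441 and 2280 CPM in smooth muscle cells. After thinning each cell to 2000 UMIs, Ogn was detected in 97.6% of control and 96.9% of case fibroblasts and in 89.3% and 91.1% of smooth muscle cells. Its ratio of fibroblasts to smooth muscle cells, 2.65 (2.60 to 2.69) and 2.44 (2.41 to 2.48), changed little between the libraries, since it was higher in the case library in both classes.

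Bgn, biglycan, had the opposite distribution to Dcn, although both carry chondroitin or dermatan sulfate chains. Smooth muscle cells held 5511 CPM in the control and 3997 CPM in the case library, and fibroblasts held 1897 and 1443 CPM. The smooth muscle level was 2.91 (2.86 to 2.96) and 2.77 (2.71 to 2.83) times the fibroblast level. The smooth muscle class held 75.5% of control and 72.6% of case UMIs of Bgn.

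Prelp, a heparin-binding leucine-rich protein, and Fmod, fibromodulin, which binds collagen and its cross-linking enzyme, were nearly level between the main classes. Prelp was measured at 439 and 411 CPM in control and case smooth muscle cells and at 388 and 361 CPM in fibroblasts. Fmod was measured at 237 and 202 CPM in smooth muscle cells and at 204 and 200 CPM in fibroblasts. In the case library the Fmod ratio of fibroblasts to smooth muscle cells was 0.992 (0.932 to 1.06), an interval that includes 1.

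Vcan was found in smooth muscle, fibroblast and endothelial cells. It was measured at 366 and 424 CPM in control and case smooth muscle cells, at 467 and 490 CPM in fibroblasts and at 391 and 249 CPM in endothelial cells. In macrophages it was 13.1 and 52.5 CPM, from 4 and 29 UMIs. Ungated cells held Vcan at 408 CPM in the control and 525 CPM in the case library. The smooth muscle, fibroblast and endothelial levels of the control library lay within 1.28-fold of each other, the ratio of fibroblasts to smooth muscle cells, while in the case library the endothelial level was the lowest of the 3.

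Omd, osteomodulin, a keratan sulfate proteoglycan of bone, was almost absent from the counts. All kept cells together held 11 UMIs of Omd, against 137826 of Ogn and 6129 of Aspn on either side of it. Control fibroblasts held 0 UMIs, which allows up to 0.371 CPM, and case fibroblasts held 4. It was therefore under the minimum of 100 UMIs in every class and no ratio is given for it.

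**Figure D1:**
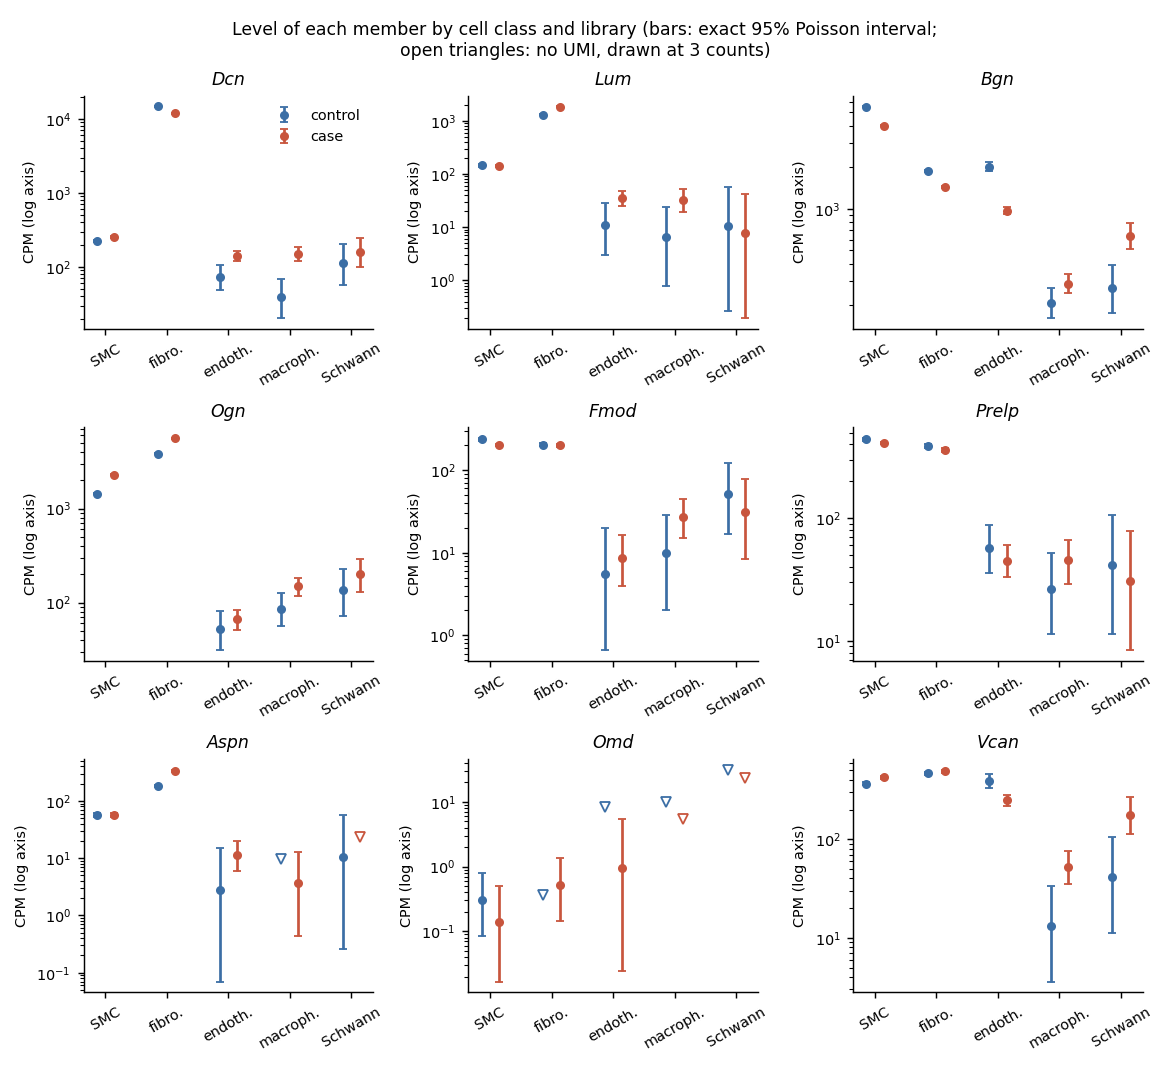
Level of each of the 9 members in CPM (log axis) in 5 cell classes, with control in blue and case in red, bars as exact 95% Poisson intervals and open triangles where no UMI was found (drawn at 3 counts). Dcn is highest in fibroblasts, at 14826 and 11908, Bgn is highest in smooth muscle cells, and Vcan lies between 249 and 490 CPM in smooth muscle, fibroblast and endothelial cells.

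The members were also read relative to Dcn within each class, since a droplet can hold free RNA of other cells. The part of free RNA in these values was not tested. Per 100 Dcn UMIs, fibroblasts held 8.83 control and 15.6 case UMIs of Lum, while smooth muscle cells held 64.4 and 55.7. For Ogn the values were 25.7 and 46.8 in fibroblasts against 641 and 884 in smooth muscle cells. Macrophages held 217 and 98.8 UMIs of Ogn per 100 of Dcn, from 12 and 83 Dcn UMIs. For Dcn itself, the smooth muscle levels of 225 and 258 CPM stood above the 39.4 and 150 CPM of macrophages, which served as cells that should lack it. The case macrophage level was carried by few cells, since the upper 5% of 98 cells held 80.7% of its 83 UMIs. After thinning, 28.6% of control and 27.7% of case smooth muscle cells held a Dcn UMI, against 5.56% and 8.60% of macrophages. In the case smooth muscle class the upper 5% of cells held 46.0% of its Dcn UMIs, and in the control class 28.7%. Cells with both smooth muscle and fibroblast markers, 74 control and 56 case cells, had been kept out of both classes.

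**Figure D2:**
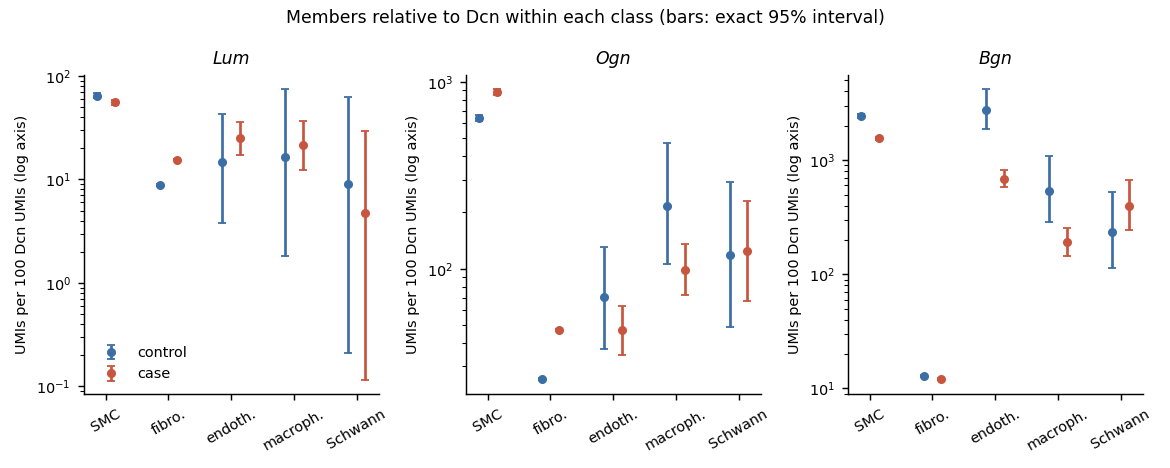
UMIs of Lum, Ogn and Bgn per 100 UMIs of Dcn (log axis) in 5 cell classes, control in blue and case in red, with exact 95% intervals. Fibroblasts are lowest for Bgn, and smooth muscle cells lie higher than fibroblasts in all 3 plots, for Lum at 64.4 and 55.7 against 8.83 and 15.6.

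The comparison of the case with the control library asked how the family differed in each class 28 days after the injury. Ratios are given for genes with at least 100 UMIs over both libraries in the class, and a gene was counted when its ratio was at least 1.5 in either direction. In smooth muscle cells 8 of the 9 members passed the minimum and 1 of them, Ogn, was counted as higher, while 5.40% of the 8895 genes tested were counted as higher. None was counted as lower, against 15.5% of all genes. Ogn was at 1441 CPM in the control and 2280 CPM in the case library, a ratio of 1.58 (1.55 to 1.61), and 4.33% of all tested genes lay at or above it. Control and case cells of the class fell largely into different Leiden clusters (groups of similar cells, made without the members). Cluster 5 held 553 control and 124 case cells of the class, and cluster 2 held 48 and 981. The clusters were made without correction for library. Whether the class had another make-up or the same cells differed between libraries was therefore not tested. Within the 6 clusters with at least 30 cells of the class in each library, the Ogn ratio ranged from 1.27 to 1.84 and was above 1 in each, and the Bgn ratio ranged from 0.620 to 0.846. Over the whole class the other members kept within the limit. Bgn had a ratio of 0.725 (0.717 to 0.733), Fmod 0.852 (0.810 to 0.897) and Prelp 0.935 (0.902 to 0.970). Vcan had a ratio of 1.16 (1.11 to 1.20) and Dcn 1.15 (1.09 to 1.20). The direction of Dcn turned in 4 of 12 alternatives, of which the minimum of 20 UMIs per gene could not move a ratio. Dcn stood at -0.15 with doubled marker limits and -0.14 in thinned cells, against a log2 change of 0.20 here. As a mean over single cells it was -0.31, and with the macrophage level subtracted -0.78. The intervals of Lum and Aspn included 1, with ratios of 0.992 and 1.02. The median log2 change was 0.0078 over the members tested and -0.14 over all genes tested.

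In fibroblasts 8 members passed the minimum as well, and 1 of them, Aspn, was counted as higher, while 6.45% of 7344 genes were. None was counted as lower, against 14.6% of all genes. Aspn was at 183 CPM in the control and 335 CPM in the case library, a ratio of 1.84 (1.72 to 1.96), and 2.72% of all tested genes lay at or above it. This ratio did not hold within clusters. Cluster 3 held 34 control and 696 case cells, and its case fibroblasts had Aspn at 530 CPM (504 to 556). In clusters 4, 6 and 11, which both libraries filled, the Aspn ratio was 1.23 (1.07 to 1.41), 0.816 (0.707 to 0.939) and 1.44 (1.21 to 1.71), all under the limit. Ogn and Lum stood just under the limit, with ratios of 1.46 (1.44 to 1.48) and 1.42 (1.38 to 1.45). Within the same 3 clusters Ogn had ratios of 1.52, 1.60 and 1.31 and Lum of 1.37, 1.39 and 1.86, so both were higher in the case library in each. Under TMM scaling, which sets the middle of the genes to no change, both passed it and 3 members were counted. Dcn had a ratio of 0.803 (0.796 to 0.810) and Bgn of 0.761 (0.742 to 0.780). Within the clusters Dcn had ratios of 1.01 (0.996 to 1.02), 0.931 (0.915 to 0.947) and 0.809 (0.788 to 0.829), and Bgn of 0.724, 0.992 and 0.886, while the case fibroblasts of cluster 3 had Dcn at 8584 CPM. Fmod, Prelp and Vcan lay between 0.931 and 1.05 over the whole class, but Fmod had ratios of 0.816 in cluster 4 and 2.61 (2.26 to 3.01) in cluster 6. The upper 5% of fibroblasts held 52.1% of control and 64.4% of case UMIs of Fmod. How many cells carry its cluster ratios was not tested. The median log2 change was 0.022 over the members tested and -0.096 over all genes tested. Within the pair of neighbours Dcn and Lum the directions thus differed in the fibroblast class as a whole, where Dcn was lower and Lum higher in the case library.

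**Figure D3:**
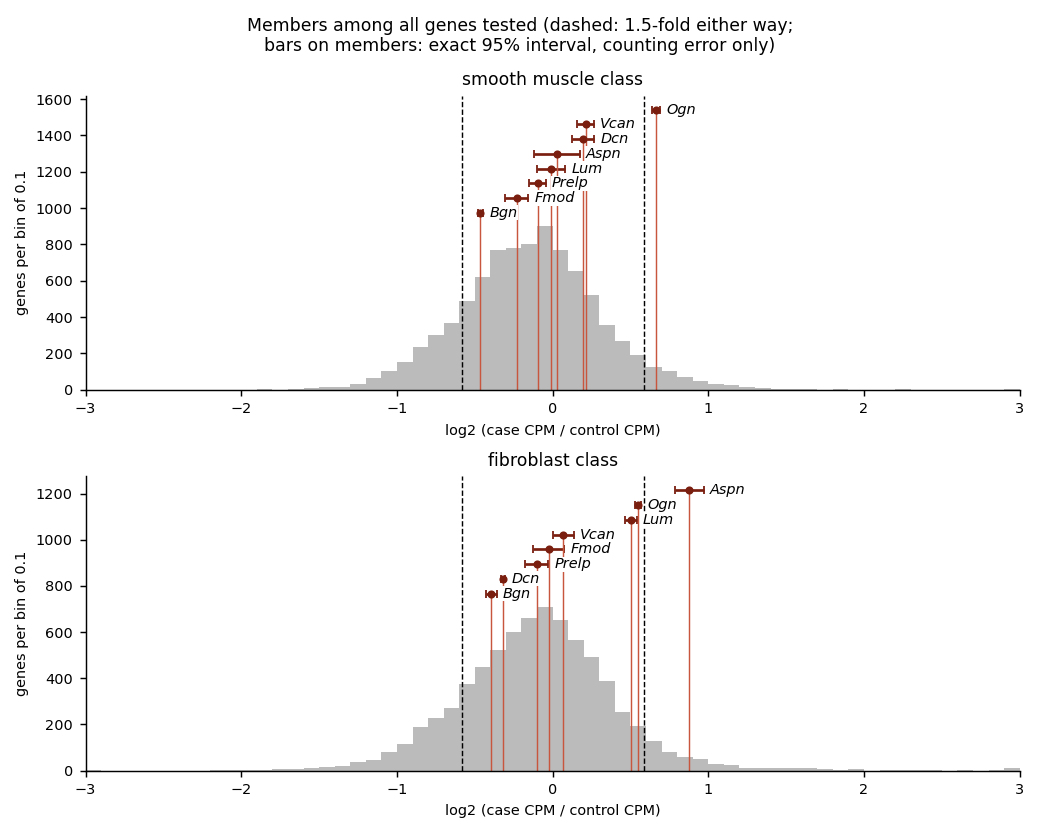
Number of genes (grey bars, bins of 0.1) by the log2 ratio of case to control CPM in the smooth muscle class (top) and the fibroblast class (bottom), with members as labelled points and exact 95% intervals, set at different heights only to be legible. Ogn in smooth muscle cells (1.58) and Aspn in fibroblasts (1.84) are the members past the dashed 1.5-fold lines. The Aspn ratio was under the limit in each cluster that gave one, and cluster 3, which held mostly case cells, gave none.

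In endothelial cells 3 members reached 100 UMIs. Of these, 1 was counted as higher, against 23.0% of the 1985 genes tested, and 2 as lower, against 23.4%. Bgn was at 2027 CPM in the control and 971 CPM in the case library, a ratio of 0.479 (0.435 to 0.527). Vcan had a ratio of 0.637 (0.518 to 0.787). The endothelial class itself was not of the same make-up in both libraries. Cells with Plvap or Emcn, genes of microvascular and venous endothelium, were 6 of 45 in the control and 95 of 218 in the case library. They held little Bgn (309 and 464 CPM) and little Vcan (0 UMIs in the control and 58.3 CPM in the case library). Among the remaining 39 control and 123 case cells, Bgn was still lower in the case library, at 2213 and 1302 CPM (ratio 0.588, 0.532 to 0.651). The Vcan ratio there was 0.863 (0.698 to 1.07), an interval that includes 1 and does not reach the 1.5-fold limit. Dcn was counted as higher in endothelial cells from 27 and 147 UMIs, with 85.0% of the case UMIs in the upper 5% of cells. As a mean over cells with equal weight, its log2 change was 0.098 instead of 0.93.

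In macrophages Bgn and Ogn reached the minimum, and Ogn, at 85.3 and 148 CPM, was counted as higher (ratio 1.74, 1.11 to 2.82), against 16.4% of the 1278 genes tested. These counts rest on 26 and 82 UMIs, and the upper 5% of case cells held 68.3% of the case UMIs. Macrophages served above as cells that should lack Dcn, and whether their Ogn is their own was not tested. None was counted as lower, against 13.5% of all genes. With the marker limits halved no member was counted, but Ogn was then under the minimum and was not tested.

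Fibroblasts were then divided by genes that are no members. Cells with Postn, a matrix gene of activated fibroblasts, were 10 control and 158 case cells. Of the remaining cells, 202 and 372 had high Gfpt2, 263 and 237 had Pi16, a gene of adventitial fibroblasts, and 207 and 586 had neither. The states are ordered gates and Gfpt2 cells also held Pi16, at 2648 CPM in the control and 1090 CPM in the case library (3312 and 3017 CPM in Pi16 cells), so the Gfpt2 state itself was not alike in both libraries. Dcn was highest in Pi16 cells, at 16925 and 16239 CPM, and lowest in Postn cells, at 10348 and 8590 CPM. Vcan was higher in Gfpt2 cells, at 641 and 614 CPM, than in Pi16 cells, at 377 and 368 CPM. Fmod had the reverse order, at 160 and 95.01 CPM in Gfpt2 cells and 193 and 245 CPM in Pi16 cells. Among the case states, Postn cells had the most Lum, at 2574 CPM, and the least Fmod, at 40.7 CPM.

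The ratios of Ogn, Lum and Aspn were above 1 within each of the 3 larger states. Ogn had case-to-control ratios of 1.33 (1.29 to 1.37) in Gfpt2 cells, 1.62 (1.58 to 1.67) in Pi16 cells and 1.65 (1.61 to 1.69) in the cells with neither. Aspn had ratios of 1.69 (1.49 to 1.91), 1.31 (1.15 to 1.49) and 2.53 (2.24 to 2.87) in the same order. Lum had ratios between 1.16 and 1.40, and Dcn between 0.851 and 0.959. The Dcn difference within states was smaller than the 0.803 of the whole class, in which the share of cells with high Dcn, the Pi16 cells, also differed. With the 3 larger states weighted equally the log2 change of Dcn in fibroblasts was -0.16 instead of -0.32, and Ogn passed the limit. Fmod moved in different directions, with a ratio of 0.594 (0.506 to 0.695) in Gfpt2 cells and 1.27 (1.10 to 1.46) in Pi16 cells, while the class as a whole gave 0.983 (0.916 to 1.05).

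**Figure D4:**
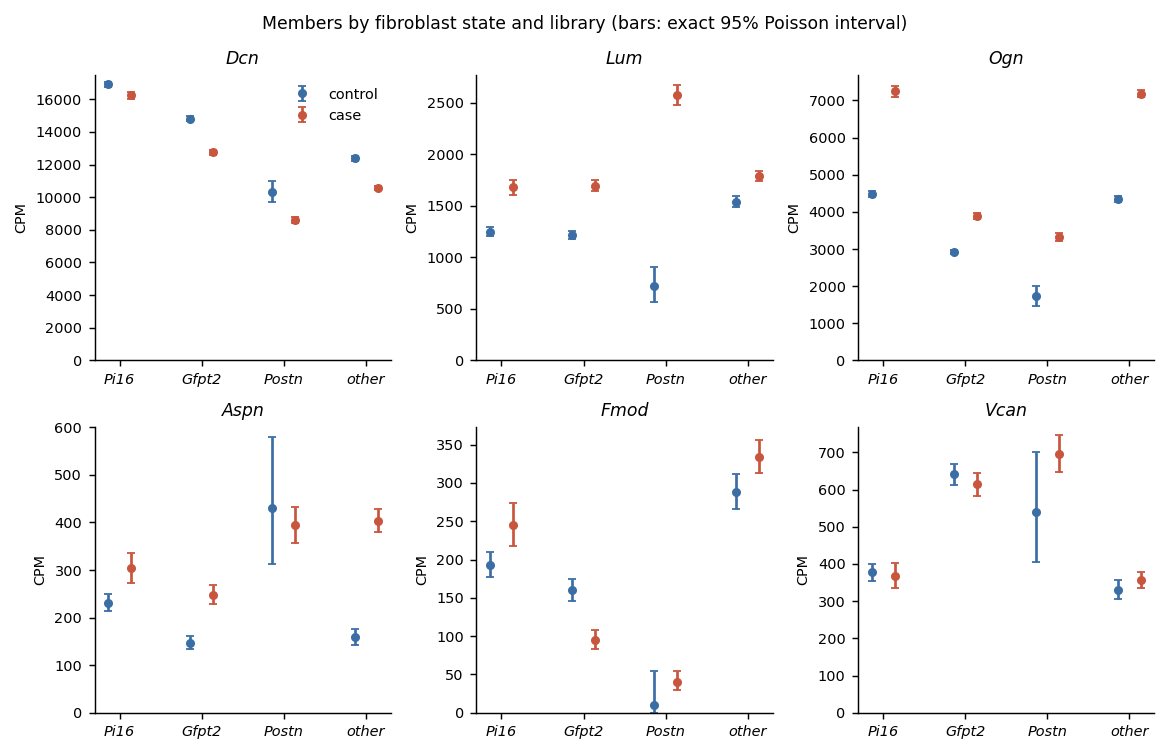
CPM of Dcn, Lum, Ogn, Aspn, Fmod and Vcan in fibroblasts with Pi16, Gfpt2, Postn or none of these, control in blue and case in red, with exact 95% Poisson intervals on axes that start at 0. Ogn and Aspn are higher in the case library in Pi16, Gfpt2 and other cells, although Aspn is not higher in every cluster, and Vcan is highest in Gfpt2 cells of the control library (641) and in Postn cells of the case library (695).

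Smooth muscle cells were divided by Notch1, a receptor, and Spp1, osteopontin. Ogn had ratios of 1.87 (1.75 to 2.00) in Notch1 cells (87 and 207 cells), 1.60 (1.53 to 1.68) in Spp1 cells (187 and 375 cells) and 1.55 (1.52 to 1.58) in the others. Bgn was lower in the case library in each, with ratios of 0.720, 0.695 and 0.738. Bgn stood at 6279 and 4364 CPM in control and case Spp1 cells, against 4987 and 3591 CPM in Notch1 cells.

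Fmod was held by few of the fibroblasts. The upper 5% of fibroblasts held 52.1% of control and 64.4% of case UMIs of Fmod, while for the other members that passed the minimum this share lay between 12.3% (Dcn) and 31.8% (Vcan), both in the control library. In smooth muscle cells the share for Fmod was 21.6% and 27.5%. At 2000 UMIs per cell, 81.9% of control and 85.5% of case fibroblasts held no Fmod UMI, and 5.25% and 4.72% held 3 or more. The mean was 0.381 and 0.366 UMIs per cell. In smooth muscle cells the mean was higher, at 0.497 and 0.379 UMIs, and yet 2.59% and 1.78% held 3 or more. The variance over the mean was 2.71 and 4.36 for Fmod in fibroblasts against 1.41 and 1.48 in smooth muscle cells, 1.43 and 1.82 for Prelp, its neighbour on the chromosome, in fibroblasts, and 2.58 and 3.19 for Lum, which has a higher mean there. The 92 control and 142 case fibroblasts with at least 5 Fmod UMIs per 10000, a group chosen after its values were seen, had more Bgn than the remaining fibroblasts (2406 against 1809 CPM in the control and 2268 against 1336 CPM in the case library) and less Vcan (310 against 494 and 355 against 507 CPM). Has2, which makes the hyaluronan that versican binds, was at 22.8 against 221 CPM in the control and 14.8 against 207 CPM in the case library. Eln, elastin, was at 2632 against 1241 and 2347 against 585 CPM. Has2 and Eln were also chosen after their values were seen.

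The genes that make, bind and cleave these proteoglycans were read from 78 symbols, of which 74 were listed. In smooth muscle cells 42 were tested, 3 were counted as higher (5.40% of all genes were) and 2 as lower (15.5% of all genes were). In fibroblasts 40 were tested, 1 was counted as higher (6.45% of all genes were) and 4 as lower (14.6% of all genes were). Cd44, the hyaluronan receptor, was higher in the case library in both classes, at 58.6 and 130 CPM in smooth muscle cells (ratio 2.22, 2.04 to 2.42) and at 286 and 659 CPM in fibroblasts (ratio 2.30, 2.19 to 2.42). Has1, a hyaluronan synthase, was at 4.47 and 10.0 CPM in smooth muscle cells, from 58 and 146 UMIs, and Adamts4, a protease of versican, at 12.1 and 19.9 CPM. Both were far higher in fibroblasts and were there not higher in the case library, with Has1 at 607 and 499 CPM (ratio 0.821) and Adamts4 at 850 and 745 CPM (ratio 0.877). The part of free RNA in the smooth muscle values of Has1 and Adamts4 was not tested. Tnfaip6, whose secreted product binds hyaluronan, was at 6091 and 3530 CPM in fibroblasts (ratio 0.580, 0.571 to 0.588), and Adamts8, a related protease, at 34.5 and 12.8 CPM. B3gat3 in fibroblasts and B4galt7 in smooth muscle cells, enzymes of the linker on which the chains start, had ratios of 0.572 and 0.564, and Bmp4 in fibroblasts had a ratio of 0.598. Srgn, the intracellular proteoglycan serglycin, had a ratio of 0.629 in smooth muscle cells. None of the 11 tested genes of chondroitin and dermatan sulfate chain growth in smooth muscle cells, nor of the 9 in fibroblasts, was counted.

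Genes with the most similar distribution were sought over the 10 class-by-library groups with at least 50 cells, including ungated cells and cells with both sets of markers, among 4183 genes, with the members themselves left out of the ranking. These points share libraries and cell types, so the correlations are descriptive. Dcn was closest to Gpx3 (Pearson's r 0.995) and Tnfaip6 (0.994), Lum to C1s (0.992) and Smoc2 (0.986), and Bgn to St3gal2 (0.986) and Slit3 (0.981). Ogn was closest to Prrx1 (0.980) and Abcc9 (0.978), and Aspn to Thbs3 (0.973) and AABR07068316.1 (0.970). Fmod was closest to Loxl1 (0.984) and Prelp to Sod3 (0.995), and both had NEWGENE_1308171 as the next gene outside the family (0.978 and 0.992). Vcan was closest to Adamts1 (0.985), a protease that cleaves it, and Klf9 (0.983).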

How the data were processed

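Carotid cells of 1 control and 1 case library (2 rats pooled in each) were profiled on the 10x Genomics platform. The authors deposited raw UMI counts of each gene in each barcode, from Cell Ranger 3.1.0 per the file headers and on Rnor_6.0 according to the submitters' processing notes. The library of each barcode suffix was taken from the barcode numbers stated by the study (5656 case, 3321 control). The libraries held 24968329 and 28232614 UMIs. Barcodes with at least 1000 UMIs and at most 20% mitochondrial UMIs were kept.

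Classes were gated on the percent of a cell's UMIs from marker genes: smooth muscle at least 0.8% with fibroblast markers under 0.15%, fibroblast at least 0.2% with smooth muscle markers under 0.3%, endothelial at least 0.08%, macrophage at least 0.3% and Schwann at least 0.15%. Fibroblast states needed at least 2 UMIs and, per 10000 UMIs, 3 of Postn, 20 of Gfpt2 or 10 of Pi16. All limits were set after the data were seen, and the members and lists were chosen with earlier results of these data known. UMIs were summed per class and library. Leiden clusters of both libraries together, made without the members and without correction for library, served as an alternative and for ratios within clusters. Exact Poisson, conditional binomial and Clopper-Pearson intervals (95%) describe counting alone. Where no UMI was found, up to 3 are allowed. All members, the genes that define classes and states, and the 2 genes most alike to each member by log2(CPM + 10) were named. The outermost pathway genes past 1.5-fold were named for smooth muscle cells and fibroblasts only. The ratio step was tested on simulated counts with counting error only, so that test does not cover the spread between cells or libraries. Software was Python 3.11.15, scipy 1.17.1, scanpy 1.11.5, R 4.3.3 and edgeR 4.0.16 (TMM factors only). Protein sequences were not analysed here.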

Additional observations from a re-analysis of the deposited data

Results flagged for a closer look

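For 3 members the ratio of case to control pointed in opposite directions in different cell classes, each beyond its own counting error. With 1 library per group the difference between classes was not tested. The log2 change of Dcn was -0.32 in fibroblasts, 0.20 in smooth muscle cells and 0.93 in endothelial cells. The endothelial value rested on 27 and 147 UMIs and was 0.098 as a mean over single cells. The upper 5% of case endothelial cells held 85.0% of the case UMIs. Dcn in smooth muscle cells was at -0.15 with doubled marker limits, at -0.14 in thinned cells, at -0.31 as a mean over single cells and at -0.78 once the macrophage level of the same library was subtracted. In the case library 80.7% of that macrophage level came from the upper 5% of 98 cells, so it is no even background. The log2 change of Bgn was -0.46 in smooth muscle cells, -0.39 in fibroblasts and -1.06 in endothelial cells, and 0.45 in macrophages. The macrophage value rested on 64 and 159 UMIs. It was -0.30 with the marker limits halved and -0.12 with classes taken from the Leiden clusters. The log2 change of Vcan was 0.21 in smooth muscle cells, 0.069 in fibroblasts and -0.65 in endothelial cells. The fibroblast value changed sign with states weighted equally (-0.012) and with the macrophage level subtracted (-0.054). Among endothelial cells without Plvap and Emcn the Vcan ratio was 0.863 (0.698 to 1.07), an interval that includes 1.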

How the results depend on the processing

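In all, 13 alternatives were run, of which 2 were chosen after seeing the data: fibroblast states weighted equally, and the macrophage level subtracted. The minimum of 20 UMIs per gene changes only which genes are counted, so it could not change a sign. The ratios within clusters were added after seeing the data as well, and there Aspn in fibroblasts changed direction in 1 of 3 clusters. Fmod in fibroblasts passed the limit in cluster 6, with a ratio of 2.61 (2.26 to 3.01). The upper 5% of all fibroblasts held 52.1% of control and 64.4% of case UMIs of Fmod, a spread that this interval does not cover. In smooth muscle cells Lum was past it as higher in cluster 9 (1.59). Fmod and Dcn were past it as lower in cluster 8 (0.414 and 0.518), and Bgn in cluster 7 (0.620). Of the 21 member-by-class log2 changes, 13 kept their sign under every alternative that gave a value, among them Ogn and Bgn in smooth muscle cells (0.61 to 0.80 and -0.52 to -0.32) and Aspn, Ogn, Lum, Dcn and Bgn in fibroblasts. The 8 others changed sign at least once: Dcn, Lum, Prelp and Aspn in smooth muscle cells, Fmod, Prelp and Vcan in fibroblasts and Bgn in macrophages. TMM scaling shifted all smooth muscle log2 changes by 0.14 and all fibroblast ones by 0.092, and Prelp in smooth muscle cells then stood at 0.044. In fibroblasts the number of members past 1.5-fold was 1, and it was 3 under TMM scaling, 2 as a mean over single cells and 2 with states weighted equally. In smooth muscle cells it was 1, and it was 2 with the macrophage level subtracted, where Dcn fell below the limit. This rests on a case macrophage Dcn level of 150 CPM that few cells carry. In macrophages it was 1, and it was 0 with halved marker limits or thinned cells, 3 with doubled marker limits and 5 with a minimum of 20 UMIs per gene. Where it was 0, Ogn was under the minimum of UMIs and was not tested. In endothelial cells it was 3 and ranged from 2 to 4. Scrublet called 16 of 2244 control and 2 of 4947 case cells, too few to count as a working doublet call, so doublets were left in. No paired analysis was possible because each group is 1 library. The number of cells limits the endothelial, macrophage and Schwann values most.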
